A study of Mus musculus with 4 samples.

Results

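Integrins, collagens and laminins were examined in the newborn mouse brain, as 78 genes (24 integrin subunits, 43 collagen chains and 11 laminin chains) of the 37059 genes and other identifiers on the array. The members were selected by gene symbol, and the families were chosen partly because the measured mRNA of Itgav was lower on both TiO2-H arrays, so that the differences between TiO2-H and Sham given here are a description, and the 1 model fitted across all genes is given by its counts alone and supports no member. Pregnant C57BL/6J mice received 25 uL of suspension or vehicle into the trachea on GD 10.5 according to the treatment protocol, whereas the sample descriptions name GD14. The dams of the TiO2-H group received titanium dioxide nanoparticles at 100 ug per mouse (the labels write the suspension as 4 ug/L), and the dams of the Sham group received the particle-free solution prepared from the same suspension. Whole brains of the offspring were taken at postnatal day 1, and RNA of 2 offspring per dam was combined over 5 dams (Sham) or 6 dams (TiO2-H) into 1 pool per sex label, so that each of the 4 groups (male and female of Sham and of TiO2-H) had 1 array and no replicate. Where 4 signals follow each other, they are those of Sham male, Sham female and then the TiO2-H arrays labelled male and female.

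Integrins are cell surface receptors made of an alpha and a beta subunit. They bind proteins of the extracellular matrix, and collagens and laminins are among their main ligands. Type IV collagen and laminin form the sheets of the basement membrane around blood vessels and beneath the meninges, to which the end feet of radial glia attach. Fibrillar collagens in the brain belong mainly to the meninges and to vessels. Alpha-v integrins bind fibronectin, vitronectin and the latent form of TGF-beta, and are known for a role in the vessels of the developing brain.

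The arrays were close in quality. Between 56.2% and 61.2% of spots were well above background, the 75th percentile of the signal lay between 795.3 and 870.7, and no spot was saturated. Levels were compared as log2 of the processed signal minus the log2 of the 75th percentile of the same array. The 75th percentile was higher on both TiO2-H arrays, so an unscaled signal could be higher there while the scaled level was lower. Signals below are unscaled and log2 differences are scaled. The brightest probe stood for a gene. All 4 arrays lay on 1 slide with the Sham arrays in one row and the TiO2-H arrays in the other, so that row and exposure cannot be told apart. The TiO2-H arrays went against their sex labels, as the X-inactivation transcript Xist gave a signal of 346.6 on the array labelled male and 5.36 on the array labelled female, and the Y-linked Ddx3y gave 7.18 and 1783, respectively. The Sham female array also gave 142.5 for Ddx3y beside 275.6 for Xist. The TiO2-H arrays are therefore called the arrays labelled male and female, and the comparison of both TiO2-H arrays with both Sham arrays does not use the sex labels.

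Of the 78 members, 59 (75.6%) were well above background on all 4 arrays, against 60.2% of all genes. These were 17 integrins, 31 collagens and all 11 laminins. A further 5 (Col27a1, Col6a4, Col6a6, Itgax and Itgb7) were well above background on some arrays, and 14 on none. The 14 included the platelet integrin Itga2b, the fibronectin receptor subunit Itga5, the epithelial beta subunit Itgb6, the collagen receptor subunit Itga2, and the hypertrophic cartilage collagen Col10a1. Of the 7 platelet and megakaryocyte markers, Ppbp, Gp9, Gp1ba, Gp5 and Gp6 were likewise well above background on none of the arrays, whereas Pf4 and Gp1bb were measured on all 4, with overlapping groups. The neuron markers (8 of 8) and the radial glia and astrocyte markers (8 of 8) were measured on every array.

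Itgav, the alpha-v subunit, had the largest decrease among the measured members. Its signal was 230.1 (male) and 257.5 (female) under Sham, and 139.0 (labelled male) and 153.2 (labelled female) under TiO2-H. Both TiO2-H signals lay below both Sham signals, and the values within an exposure were close. The log2 difference was −0.83 (0.56-fold) within the male label, −0.88 (0.54-fold) within the female label and −0.85 over all 4 arrays, whereas the Sham arrays differed by 0.19. The scanner's own error of the 4-array difference was 0.16. These are the values that led to the choice of the families. A second Itgav probe, dimmer but well above background on every array, gave 64.7, 51.1, 35.1 and 62.1 in the same order. Here the TiO2-H array labelled female lay within the Sham values, so that the groups overlapped, and the log2 difference was −0.42. Fewer cells of a type and less RNA per cell cannot be told apart in whole brain.

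The beta subunits that pair with alpha-v had smaller differences, from −0.12 to 0.21. Itgb1, the beta subunit with the most alpha partners, gave 993.5, 936.3, 972.9 and 947.9, and its scaled level was lower on both TiO2-H arrays by a log2 difference of −0.12. A second Itgb1 probe gave a difference of 0.06 with overlapping groups. Itgb3, which forms the vitronectin receptor with alpha-v, gave 228.9, 237.8, 290.4 and 293.4, and was higher on both TiO2-H arrays (log2 difference 0.21). Itgb5, another partner for vitronectin, gave 2758.5, 2692.8, 2987.9 and 3137.9, with a difference of 0.05. Itgb8, whose dimer with alpha-v activates latent TGF-beta in the developing brain, gave 73.3, 74.2, 79.6 and 75.6, and its scaled levels overlapped, with a difference of −0.04 that turned to 0.07 without scaling and 0.03 after another background correction. Thus, of the 5 partners, 1 was lower and 2 were higher on both TiO2-H arrays, 1 overlapped, and Itgb6 was not measured.

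**Figure D1:**
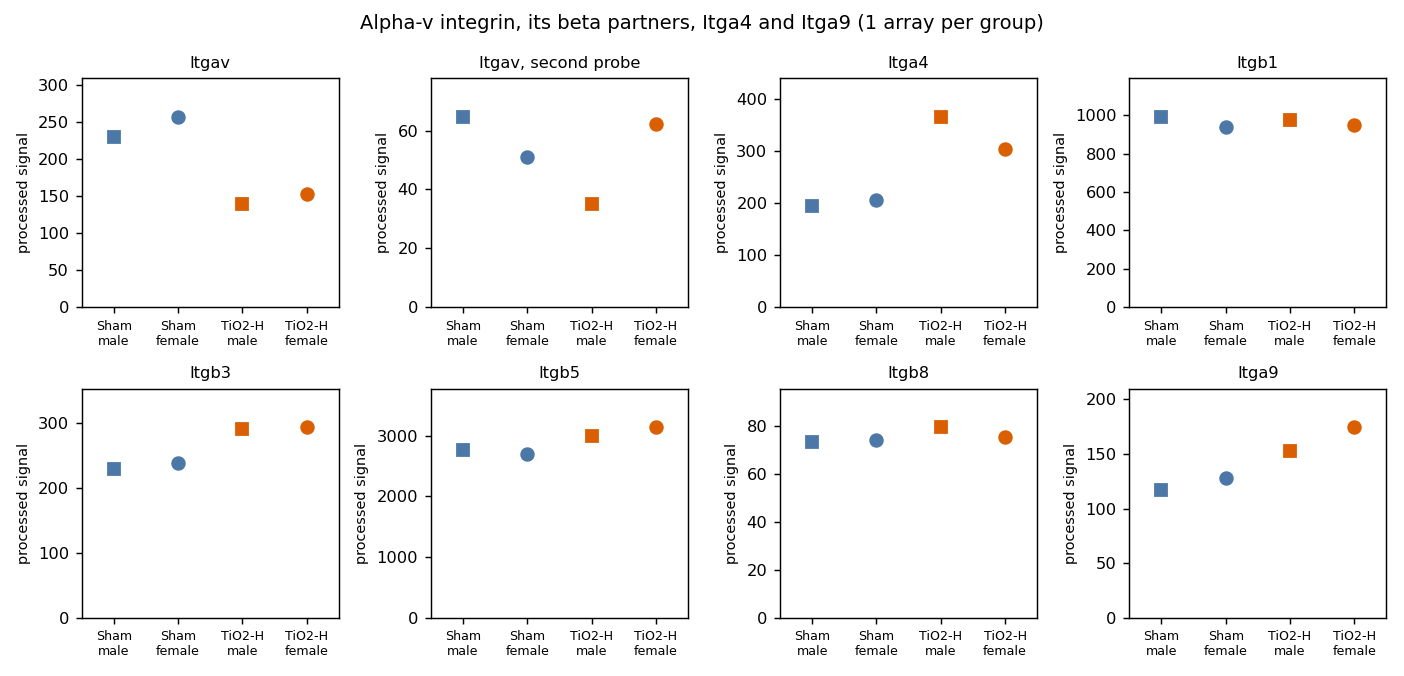
Processed signal (unscaled, linear axis from 0) of Itgav, its second probe, its beta partners, Itga4 and Itga9 on each of the 4 arrays, 1 point per array. Itgav lies at 230.1 and 257.5 on the Sham arrays and at 139.0 and 153.2 on the TiO2-H arrays, while the second Itgav probe overlaps and Itga4 lies in the opposite order. The unscaled Itgb8 signals are slightly higher on both TiO2-H arrays, and only its scaled levels overlap.

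Itga4, the alpha subunit that pairs with Itgb1 or Itgb7 and binds fibronectin and the vascular adhesion molecule VCAM-1, had the largest increase over all 4 arrays among the integrins measured on each of them. Its signal was 194.9, 206.2, 365.7 and 303.2. Both TiO2-H arrays lay above both Sham arrays, with log2 differences of 0.81 (1.75-fold) within the male label, 0.43 (1.34-fold) within the female label and 0.62 over all 4. It lay between 0.48 and 0.73 under the scaling alternatives. The only other Itga4 probe was too dim to be well above background on any of the arrays, and with the mean of both probes the difference was 0.12. Itga9, the closest relative of Itga4, gave 116.6, 128.3, 152.9 and 174.5, again with both TiO2-H arrays higher (0.30, and 0.10 after another background correction). Itgb7, the alternative partner of Itga4, gave 35.0, 31.4, 52.1 and 54.1, and was well above background on both TiO2-H arrays and on neither Sham array. It was 1.39-fold higher on the array labelled male, against a Sham male signal not well above background, and at least 1.56-fold higher on the array labelled female. The log2 differences were 0.48 and 0.64, and the scanner's errors of these were 0.43 and 0.45.

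The 250 bases upstream of the start of Itgav and Itga4 are shown because these were the 2 integrin subunits with the largest differences, in opposite directions, and both lie on chromosome 2 (RefSeq, build GRCm38.p6, each written 5′ to 3′ on the strand of its gene). Capitals mark a GC box (GGGCGG on either strand), and CCAAT and TATAAA were also searched on both strands.
Itgav, chr2:83724147-83724396 (+): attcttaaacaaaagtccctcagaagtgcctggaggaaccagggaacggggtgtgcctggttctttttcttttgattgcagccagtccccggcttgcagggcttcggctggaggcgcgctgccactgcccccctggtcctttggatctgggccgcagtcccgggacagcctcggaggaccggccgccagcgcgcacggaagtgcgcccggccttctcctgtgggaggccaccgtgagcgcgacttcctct
Itga4, chr2:79255176-79255425 (+): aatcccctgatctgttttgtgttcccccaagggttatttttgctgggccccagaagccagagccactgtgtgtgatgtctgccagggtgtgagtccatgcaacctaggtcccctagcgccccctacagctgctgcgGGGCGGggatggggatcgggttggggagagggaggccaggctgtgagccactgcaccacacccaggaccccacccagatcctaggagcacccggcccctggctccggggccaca
Both windows were GC rich, at 64.4% and 64.0%, against a median of 52.4% over 32851 windows of the same length. The Itgav window held none of the 3 motifs and the Itga4 window held 1 GC box. Among the partners, the window of Itgb1 held 1 GC box, that of Itgb5 held 3 GC boxes and that of Itgb8 held 1 CCAAT. Over all windows, 32.7% held a GC box, 33.8% a CCAAT and 12.4% a TATAAA. A match describes the letters only.

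Itgb4, the beta subunit of the laminin receptor of epithelia, stood apart on 1 array. It gave 169.2, 184.8, 190.4 and 375.4, so that the TiO2-H array labelled female alone was high. The log2 difference was 0.07 within the male label and 0.89 (1.85-fold) within the female label, and it was −0.0047 over the remaining arrays when the TiO2-H female array was left out. Its partner Itga6, which also forms a laminin receptor with Itgb1, gave 3790.7, 3775.2, 4561.8 and 4483.2, with a difference of 0.14 and no array apart. Itga3, a further laminin-binding subunit, was also higher on both TiO2-H arrays (0.11), whereas the laminin-binding Itga7 had overlapping scaled levels (0.04).

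The leukocyte integrins gave mixed values. Itgb2, the beta subunit common to leukocytes and microglia, gave 115.0, 105.4, 108.6 and 100.7, and its scaled level was lower on both TiO2-H arrays (−0.19). Itgam, the complement receptor subunit of microglia, gave 20473.5, 21976.7, 25352.2 and 27952.9, with a difference of 0.21. The 3 measured Itgam probes did not share a sign, as the second gave −0.22 and the third 0.21. They also differed widely in signal, with 76.8, 89.4, 78.2 and 76.3 on the second and 43.3, 45.0, 60.8 and 50.1 on the third. The level of Itgam therefore depends on the probe. Itgal, a lymphocyte subunit, gave 64.7, 49.0, 78.4 and 66.1, with overlapping scaled levels (0.24). Itgax, known from dendritic cells and activated microglia, was well above background only on the TiO2-H array labelled male, where it gave 56.0 and was at least 1.72-fold higher than on the Sham male array. Of 9 microglia and macrophage markers on the array, 3 were lower and 5 higher on both TiO2-H arrays, with a summed level (signals divided by the array's 75th percentile) of 17.0 to 17.5 on the Sham and 17.7 to 18.0 on the TiO2-H arrays. Over all genes, 26.6% were lower and 28.7% higher on both. The part of cell numbers in the leukocyte integrin and microglia values was not tested.

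Across all measured members, 4 of 59 (6.78%) were lower on both TiO2-H arrays than on both Sham arrays, beside 26.6% of 22293 genes. These were Itgav, Itgb1, Itgb2 and Lamb2. Another 29 (49.2%) were higher on both, beside 28.7% of all genes. Among the 14633 genes named by RefSeq, 26.6% were lower and 30.2% higher. The median log2 difference was 0.08 over the members and 0.003 over all genes, and 74.6% of the members had a positive difference against 50.9% of all genes. The differences were mostly small: 43 of 59 were within 0.2 in either direction. For scale, the median of the absolute difference between the Sham arrays was 0.08 and that between the TiO2-H arrays 0.06, and the scanner's error of a TiO2-H minus Sham difference had a median of 0.15. Without scaling, all genes shifted upward by a median of 0.12, and the median of the members relative to all genes remained 0.08. The count lower on both was 1 without scaling and 8 after normexp background correction, and 9, 12, 9 and 7 when the Sham male, Sham female, TiO2-H male or TiO2-H female array was left out. The count higher on both ranged from 22 to 48 over the scaling and probe settings.

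**Figure D2:**
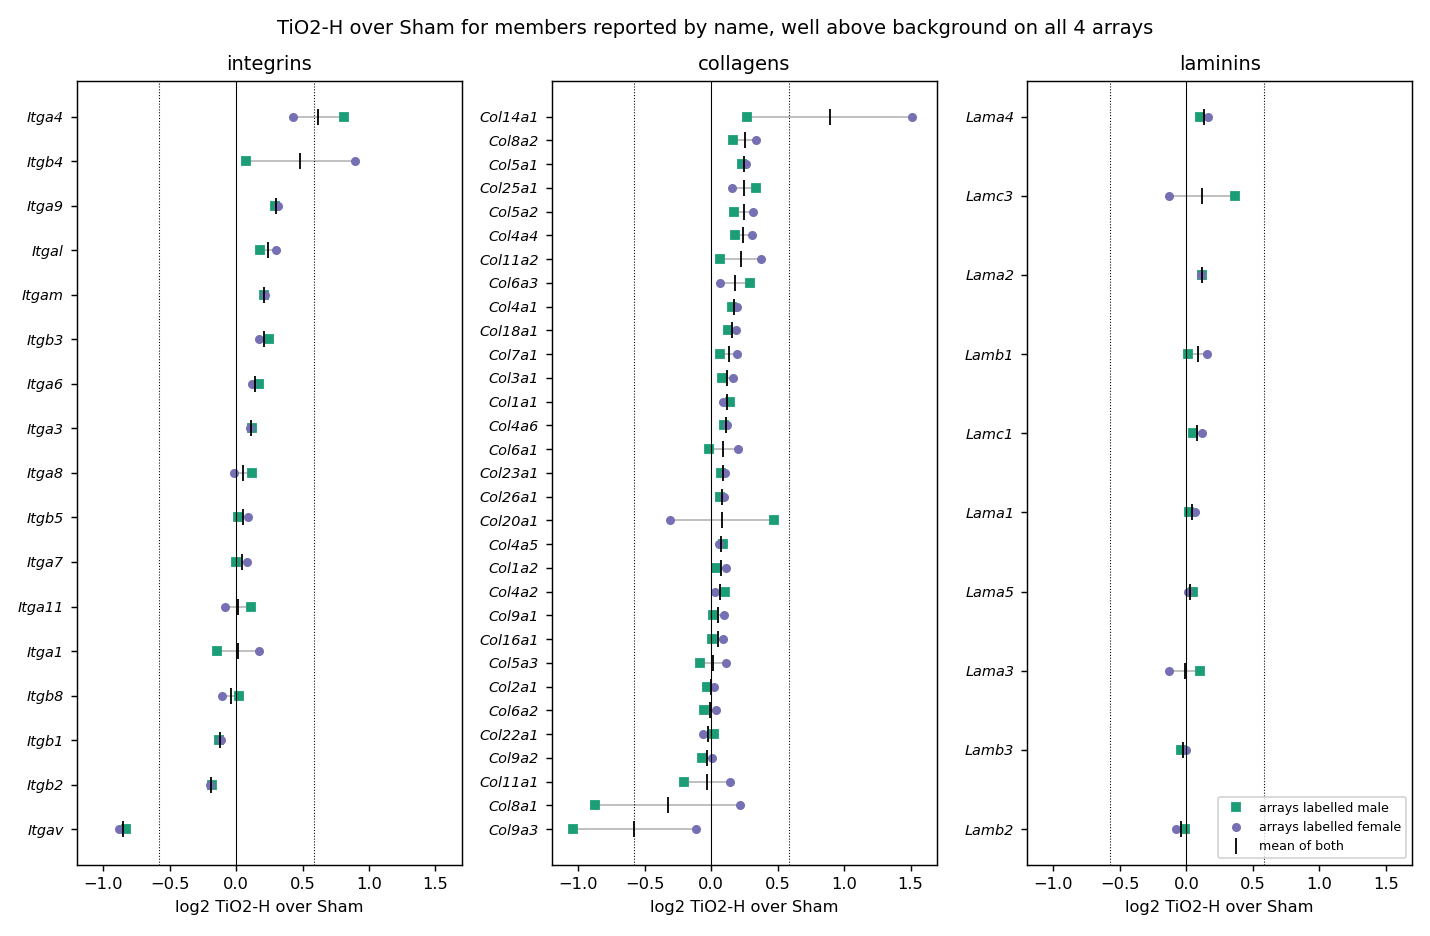
Log2 difference of TiO2-H minus Sham (scaled to the 75th percentile) for the members reported by name and measured on all 4 arrays, with squares for the arrays labelled male, circles for the arrays labelled female and a tick for their mean; dotted lines mark 1.5-fold and 0.67-fold. Itgav is the only member past a dotted line in both labels, and most laminins and collagens lie close to 0.

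By the fold thresholds of 1.5 and 0.67, few members passed. On the arrays labelled male, 6 of 62 compared members were past a threshold, beside 6.54% of all genes. Higher were Itga4, Col6a6 and Itgax, the last 2 as bounds, and lower were Itgav, Col8a1 and Col9a3. On the arrays labelled female, 4 of 62 were past, beside 5.23% of all genes, namely Col14a1, Itgb4 and Itgb7 (a bound) higher and Itgav lower. Itgav was the only member past a threshold in both labels. Between the 2 Sham arrays, a comparison that the choice of members did not use, 2 of 59 members (Col8a1 and Col9a3) were past, both lower on the female array, beside 5.62% of all genes. This comparison shares the Sham arrays with the comparisons within a label, and the Sham male array was the high one for both genes. The median of the members was 0.07 on the arrays labelled male, 0.11 on the arrays labelled female and 0.00 between the Sham arrays.

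In limma over all 22293 genes, no member and 0% of all genes had an adjusted p under 0.05 (Benjamini-Hochberg, lowest adjusted p = 0.212). At an unadjusted p under 0.05 there were 13 members, 11 higher and 2 lower, beside 18.6% of all genes. The unadjusted count was 3 without the TiO2-H female array, 6 without the Sham male array and 32 without scaling. The 2 arrays of an exposure are pools that differ in sex label, so this spread is not that between animals.

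Of the collagens, 19 of 31 (61.3%) were higher on both TiO2-H arrays and 0 lower, with a median log2 difference of 0.09. Beside these and the family shares below, 28.7% of all genes were higher and 26.6% lower. The other scalings and the mean of probes gave 15 to 27 higher and 0 to 2 lower. Of the integrins, 7 of 17 (41.2%) were higher and 3 (17.6%) lower, with a median of 0.05; these counts were 4 to 12 and 1 to 4 under those settings. Of the laminins, 3 of 11 (27.3%) were higher, near the share of all genes, and 1 (9.09%) lower, with a median of 0.04, and 9 were higher and 0 lower without scaling. The highest count in each family was the one without scaling, where 61.0% of all genes were higher and 4.85% lower.

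The type IV collagens, the network of the basement membrane, lay in adjacent pairs in the RefSeq gene table (Col4a1 with Col4a2, Col4a3 with Col4a4, Col4a5 with Col4a6). Col4a1 gave 1236.6, 1237.2, 1471.7 and 1546.0, and its pair Col4a2 gave 1418.8, 1456.5, 1627.8 and 1623.3. Both were higher on both TiO2-H arrays, with log2 differences of 0.17 and 0.06. Col4a4 gave 79.3, 73.7, 96.1 and 99.6 (0.24), while its pair Col4a3 was not measurable on these arrays. The Col4a4 difference was 0.06 after normexp. It was 0.05 with the mean of its probes, the others of which were not well above background on any array. Col4a5 gave 277.6, 283.8, 316.3 and 323.5 (0.07, and −0.05 after normexp), and Col4a6 gave 230.1, 218.7, 263.0 and 260.1 (0.11). All 5 measured chains were thus higher on both TiO2-H arrays in the scaled values, by less than the 1.5-fold threshold. After normexp the difference of Col4a5 turned negative and that of Col4a4 shrank. Col18a1, a basement membrane collagen that is the source of endostatin, was also higher (0.15), and a second probe gave 0.16.

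The fibrillar collagens showed the same order for most chains. Col1a1 gave 2900.7, 3054.3, 3430.8 and 3548.4 (0.11), and Col1a2, the other chain of type I collagen, gave 9238.2, 8909.3, 10130.2 and 10549.9 (0.07). Col3a1, found with type I collagen in vessel walls, gave 2025.0, 1875.1, 2295.9 and 2295.9 (0.12). These 3 chains were higher on both TiO2-H arrays, each within 0.2. Col5a1 and Col5a2, which regulate fibril assembly, had larger differences. Col5a1 gave 240.3, 259.7, 302.2 and 340.7 (0.25), and Col5a2 gave 165.9, 146.2, 200.4 and 199.0 (0.24). A further type V chain, Col5a3, had overlapping scaled levels (0.01). Of the cartilage collagens of the same class, Col11a2 gave 83.7, 82.2, 93.9 and 116.8 and was higher on both TiO2-H arrays (0.22), whereas the other two overlapped, with Col2a1 at 938.6, 876.9, 985.0 and 974.3 (−0.0036, and 0.11 without scaling) and Col11a1 at 174.7, 162.1, 162.1 and 195.6 (−0.03, and 0.08 without scaling). Col8a2, a short-chain collagen of the cornea and vessels, gave 205.2, 191.3, 246.6 and 264.4 and was higher on both TiO2-H arrays (0.25).

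**Figure D3:**
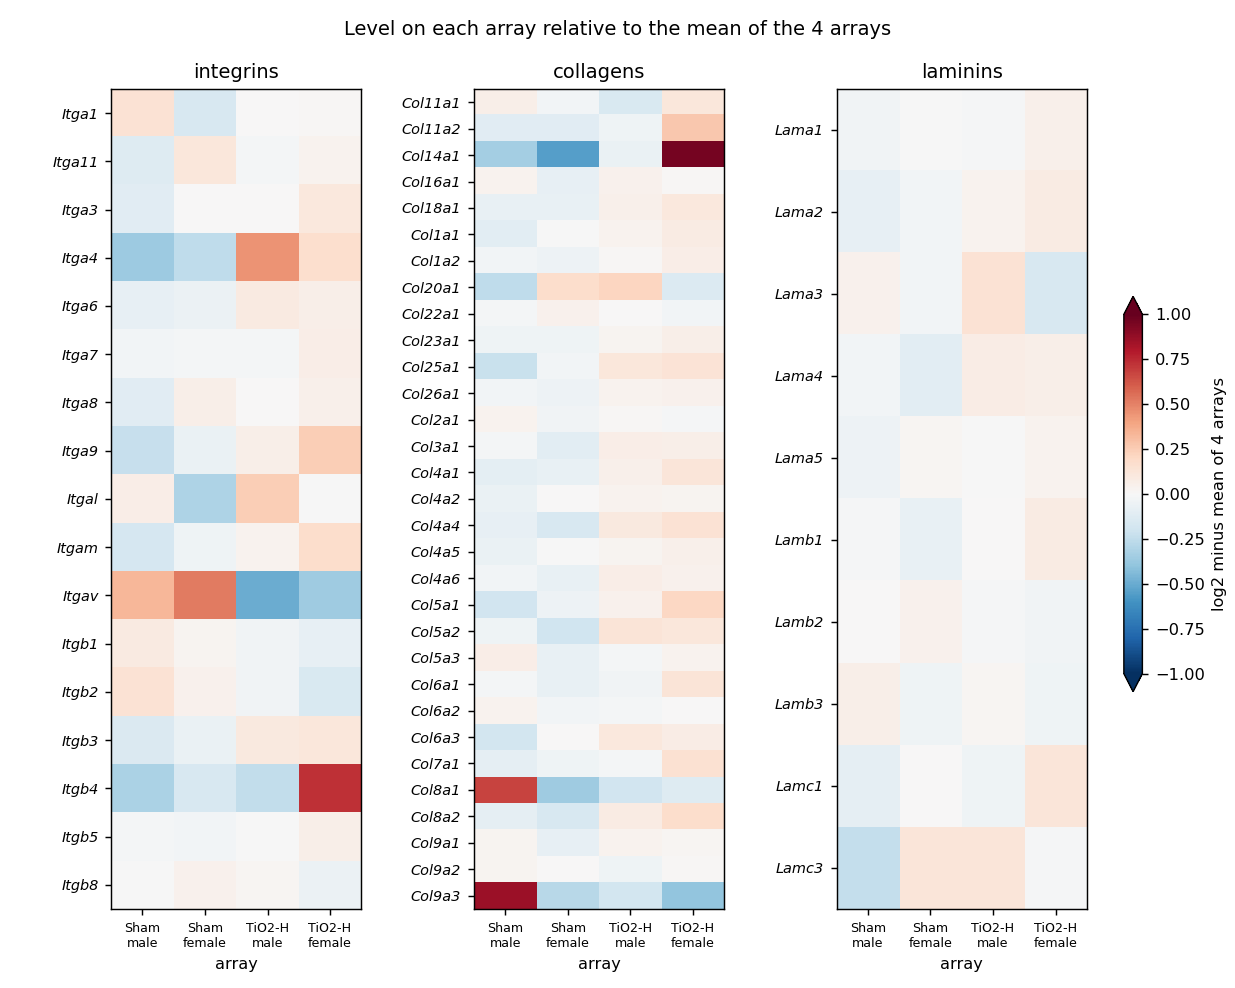
Level of the members reported by name and measured on all 4 arrays as log2 relative to its own mean of the 4 arrays (red above, blue below, scale from −1 to 1), with 1 column per array. Itgav is high on both Sham arrays, Itga4 on both TiO2-H arrays, Col9a3 and Col8a1 on the Sham male array alone, and Itgb4 on the TiO2-H female array alone.

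Markers of vessel and meningeal cells were set beside the collagens. Over all genes, 28.7% were higher and 26.6% lower on both TiO2-H arrays. Of 9 endothelial markers, all measured, 5 (among them Tie1, 0.39, and Flt1, 0.31) were higher and 1 lower on both TiO2-H arrays. The lower one was Kdr, the brightest of the 9, at 12020, 11090, 12020 and 11450 (−0.09). The 9 markers had a median of 0.17 and a summed level, led by Kdr, of 22.8 to 23.9 on the Sham and 23.3 to 23.9 on the TiO2-H arrays. Of 12 meningeal and perivascular fibroblast markers, all measured, 6 were higher and 2 lower, with a median of 0.07, while the summed level was 140.7 to 146.3 on the Sham and 134.4 to 138.1 on the TiO2-H arrays. A summed level follows its brightest genes. Most of this one came from Ptgds, at 100200, 94360, 96330 and 99720 (−0.10), so it does not describe the other fibroblast markers. Of 8 pericyte and smooth muscle markers, 7 were measured (Myh11 was not), 2 were higher and 1 lower, and the summed levels overlapped at 4.92 to 5.59 and 5.09 to 5.41. Their part in the collagen values was not tested. Hemoglobin and other erythroid markers went the other way, as 4 of 5 measured were lower on both TiO2-H arrays (median −0.17). Their summed level was 248.9 to 269.4 on the Sham and 226.4 to 233.2 on the TiO2-H arrays. The brightest of them, which leads this sum, was Hba-a2, at 156200, 139600, 141600 and 147700 (−0.14).

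Other collagens owed their difference to 1 array. Col9a3, a cartilage collagen on the surface of type II fibrils, gave 479.1, 215.3, 249.6 and 217.4. Only the Sham male array was high, so that the difference was −1.04 (0.49-fold) on the arrays labelled male, −0.12 on the arrays labelled female and −1.13 between the Sham arrays. Over all 4 arrays it was −0.58, and −0.01 without the Sham male array. Col8a1, a short-chain collagen of vessels and the cornea, followed the same order with 170.0, 81.7, 99.4 and 104.1. Its difference of −0.33 turned to 0.19 without the Sham male array. Among the cartilage and bone markers, the aggrecan gene Acan gave 139.6, 70.2, 84.6 and 91.7, also highest on the Sham male array, but Hapln1, which links aggrecan to hyaluronan, gave 60.4, 63.5, 93.0 and 114.9 (0.62), and Sox9 and Ibsp were likewise not raised on the Sham male array. Furthermore, 5 of 10 such markers (Matn1, Matn3, Comp, Runx2 and Sp7) were not well above background on any array, 1 of the 5 measured was lower and 1 higher on both TiO2-H arrays, and the summed level was 2.56 to 2.58 on the Sham and 2.39 to 2.65 on the TiO2-H arrays. Of the unmeasured ones, Matn1 was highest on the Sham male array (26.8, 7.9, 7.4 and 5.9). The part of cartilage in the Col9a3 and Col8a1 values was not tested.

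Col14a1, which associates with the surface of collagen fibrils, had the largest difference of all measured members, 0.89. Its signal was 61.7, 52.6, 79.8 and 163.7, so that both TiO2-H arrays were above the Sham arrays but the array labelled female lay far above the rest (log2 difference 0.27 on the arrays labelled male and 1.51, or 2.84-fold, within the female label). A second Col14a1 probe gave 48.2, 50.8, 49.6 and 55.6, with a difference of −0.03 and no array apart. Col25a1, a transmembrane collagen of neurons, gave 141.8, 159.6, 191.2 and 194.9 on its brightest probe (0.25) and 71.5, 79.1, 90.0 and 106.9 on the third (0.27), whereas the second probe gave 638.5, 57.4, 55.8 and 52.3 (−1.94) because the Sham male array was high. Of the 11 members with at least 2 measured probes, 6 had probes of the same sign and 5 (Col14a1, Col25a1, Itgam, Itgb1 and Lama3) did not, and in Col14a1 and Col25a1 the probes were more than 0.5 apart. Col6a6, a chain of type VI collagen, was well above background on the TiO2-H array labelled male alone, where it gave 56.2 and was at least 1.73-fold higher than on the Sham male array. In all, 4 of 59 members (Col14a1, Col8a1, Col9a3 and Itgb4) had 1 array at least 1.5-fold above or below each of the other 3, beside 2.16% of all genes, by a criterion chosen after these values were seen.

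**Figure D4:**
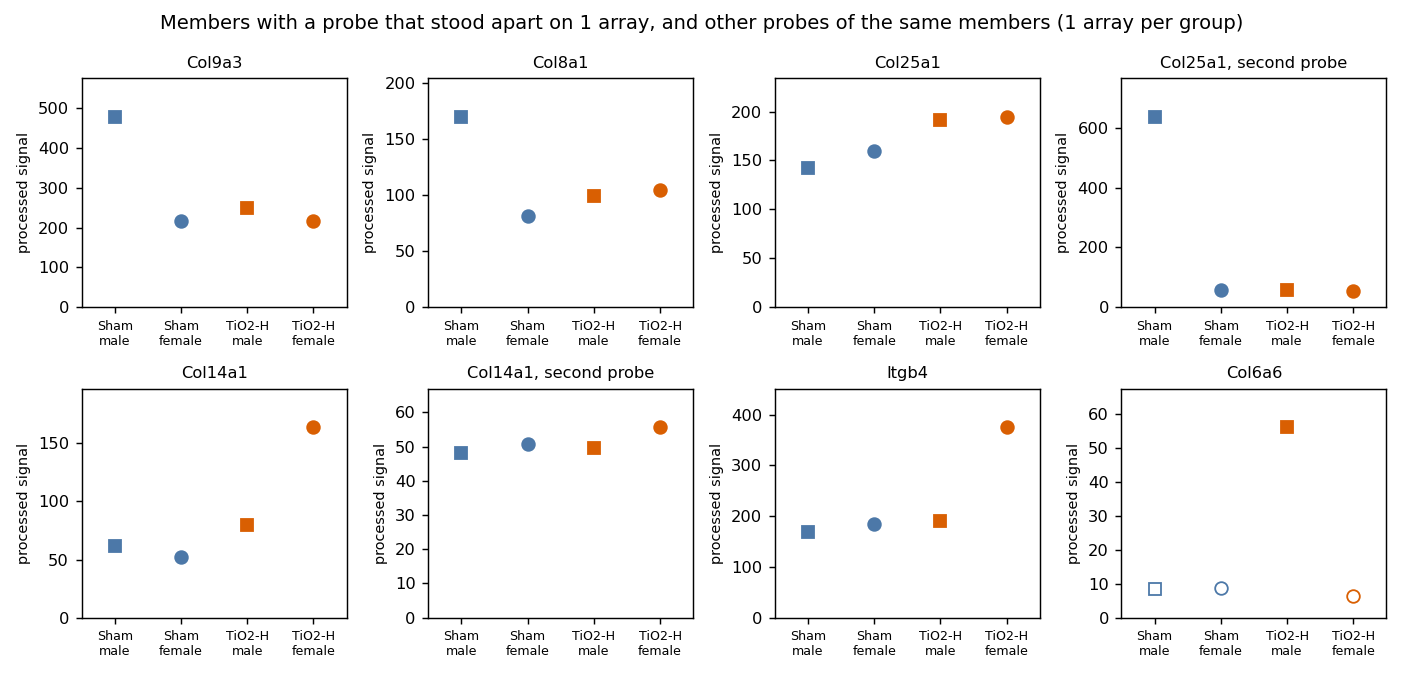
Processed signal (unscaled, linear axis from 0) of members with a probe that stood apart on 1 array, and of other probes of Col25a1 and Col14a1; open symbols are not well above background. The array that stands apart is Sham male for Col9a3, Col8a1 and the second Col25a1 probe, TiO2-H female for Col14a1 and Itgb4, and TiO2-H male for Col6a6.

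The laminins had the narrowest range of the 3 families. All 11 had differences within 0.2, from −0.04 to 0.13, and none was past a fold threshold in any comparison. Lama4, the alpha chain of vascular basement membranes, gave 605.9, 562.2, 697.1 and 689.7 and had the largest difference (0.13). Lama2, the alpha chain linked to congenital muscular dystrophy, gave 732.6, 748.2, 851.3 and 882.9 (0.11), with 0.07 on a second probe. Both were higher on both TiO2-H arrays, as was Lamb1, a beta chain of early basement membranes, at 2779.4, 2611.3, 3002.5 and 3185.8 (0.08). Lamb2, the beta chain of the neuromuscular and pial basement membrane, gave 789.5, 798.0, 838.2 and 828.6, and was lower on both TiO2-H arrays only after scaling (−0.04, and 0.07 without scaling). Lamc1, the most widely shared gamma chain, gave 1835.2, 1920.7, 2029.9 and 2280.8 (0.08), with overlapping scaled levels.

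Further laminin chains overlapped as well. Lama1, an alpha chain of the embryonic and pial basement membrane, gave 1952.7, 1953.9, 2121.3 and 2231.3 (0.04, and −0.03 after normexp), and Lama5, an alpha chain of mature vessels, gave 531.4, 548.7, 588.0 and 604.9 (0.03). Lamc3, a gamma chain whose loss is known to disturb cortical folding in people, gave 172.9, 218.0, 237.9 and 217.7 (0.11), with the Sham male array alone low, and its difference was −0.07 without that array and −0.01 after normexp. Lama3 and Lamb3, chains found in epithelia, gave 331.3, 308.9, 380.2 and 309.2 (−0.01) and 153.9, 140.9, 159.9 and 154.0 (−0.02), respectively. Without scaling these turned to 0.10 and 0.09, and a second Lama3 probe gave 0.27 with overlapping groups.

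Genes that work with the members were counted from 5 lists. Of 34 measured matrix partners, 15 were higher on both TiO2-H arrays and 4 lower, with a median of 0.06. The tenascin gene Tnr, a matrix protein of perineuronal nets, gave 172.8, 151.4, 352.3 and 227.0 (0.69), and the fibulin relative Efemp1 gave a difference of 0.37. The alpha-v ligand genes Fn1 (fibronectin) and Vtn (vitronectin) had differences of 0.23 and 0.01, and the basement membrane partners of laminin and type IV collagen, Nid1, Nid2 and Hspg2, had differences of 0.19, 0.17 and 0.22; these 5 were picked for their role after their values were seen. Of 29 measured integrin adaptors and kinases, 9 were higher and 8 lower, with a median of −0.01, and the focal adhesion kinase gene Ptk2 (0.29) and the parvin gene Parvb (−0.17) had the largest differences. Of 25 genes of collagen synthesis and cross-linking, 6 were higher and 3 lower (median 0.03), with P4ha1, a prolyl hydroxylase subunit, at 0.36 and Plod2, a lysyl hydroxylase, at −0.39 with overlapping groups.

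Of 21 measured matrix proteases and inhibitors, 8 were higher and 4 lower (median −0.01), and the shedding protease gene Adam17 had the largest difference (0.42). Of 21 genes of alpha-v integrin and TGF-beta activation, 7 were higher and 3 lower, with a median of 0.05. The largest differences there were those of Edil3, a secreted alpha-v ligand, at 1550, 1701, 2133 and 2137 (0.28), and of the latent TGF-beta binding protein Ltbp2 (0.25, overlapping). For all these lists, 26.6% of all genes were lower and 28.7% higher on both TiO2-H arrays, and no gene had an adjusted p under 0.05 in limma.

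**Figure D5:**
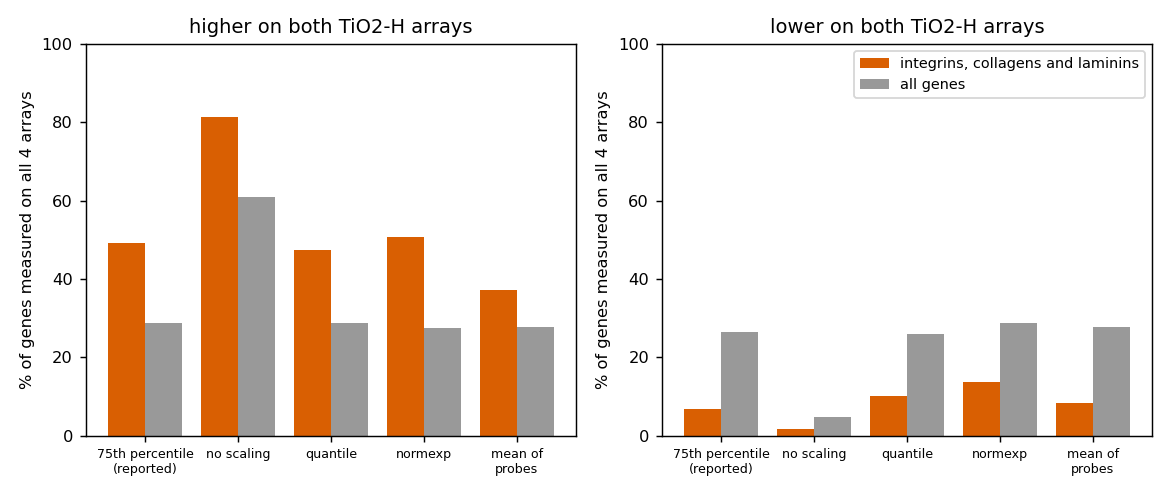
Percent of the genes measured on all 4 arrays that were higher (left) or lower (right) on both TiO2-H arrays than on both Sham arrays, for the members (orange) and all genes (grey) under 5 ways of processing. The members are at 49.2% higher and 6.78% lower in the values reported here, and without scaling at 81.4% and 1.69% beside 61.0% and 4.85% of all genes.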

How the data were processed

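Total RNA of pooled newborn brains was labeled with Cy3 and hybridized to 4 one-color arrays, 1 per group. The authors deposited the scanner output and a series table as intensity, made with Agilent Feature Extraction 10.10.1.1, which subtracts the background and detrends each array; the table held the same intensity at every spot. Spots of 59305 per array that were outliers (138 to 181) were left out, spots of a probe were averaged, and log2 intensity minus the array's 75th percentile was used. Of 22753 RefSeq accessions, 21454 (94.3%) were named through a gene table of GRCm38.p6, and any other identifier stood alone. The brightest probe stood for a gene; the members had 109 probes for 82 accessions. Of 81 table genes that fit the symbols, 3 had no accession matched on the array. No positions of probes are given, since the array's build is older.

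A gene was compared between 2 arrays if well above background on at least 1, and a signal that was not was raised to that array's lowest signal well above background (23.3 to 31.7) where it lay under it, so that the fold change is a bound. Both TiO2-H arrays were compared with both Sham arrays over genes well above background on all 4, and with limma 3.58.1 in R 4.3.3 (lmFit and eBayes, Benjamini-Hochberg). The remaining computation, in Python 3.11.15 with pandas 2.3.3, numpy 2.4.6 and matplotlib 3.10.9, was tested on simulated data. The number of arrays limits the precision, and p-values measure the spread between pools. The members, the lists and the alternatives were chosen with earlier results of these data known.

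Named genes were Itgav and its partners, members past a threshold within a label or between the Sham arrays, the 4 largest differences per family, type IV and fibrillar collagens, laminins, leukocyte and platelet integrins, and members whose probes disagreed by over 0.5. Some further members were named outside this rule, among them Itga3, Itga6, Itga7, Col5a3, Col11a2 and Col18a1. Further lists were markers of 13 cell types and 5 pathway lists with their 2 largest differences; some of the genes this rule picks are not reported here by name, though they stay in the counts. Alternatives were no scaling, quantile normalization, normexp (offset 50) on median signals, the mean of probes, another probe, outliers kept, the deposited table, stricter or no background filter, 2-fold thresholds, arrays paired across the labels, sex as a term, RefSeq-named genes alone, and each array left out. Methylation arrays were not analysed here.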

Additional observations from a re-analysis of the deposited data

How the results depend on the processing

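Counts and the median kept within 1.5 times their value, or within the spread of the arrays, under quantile normalization, outliers kept and the deposited table. Without scaling, 1 member was lower and 48 were higher on both TiO2-H arrays, and the median log2 difference was 0.20, while all genes shifted to 0.12; of the members whose groups did not overlap, 87.9% were higher in the values reported, and 98.0% without scaling, 82.4% after quantile normalization, 78.9% after normexp and 81.5% with the mean of probes. Normexp gave 3 members past a fold threshold on the arrays labelled male, 1 between the Sham arrays, and 8 lower on both. The mean of probes gave 4 between the Sham arrays. With no background filter and no floor, 10, 16 and 10 members were past a threshold on the arrays labelled male, labelled female and between the Sham arrays, and 9 were lower on both. At 2-fold, 1 was past in each label. With the arrays paired across the labels there were 5 and 5. Leaving out 1 array gave 7 to 12 members lower on both (9 without Sham male, 12 without Sham female, 9 without TiO2-H male, 7 without TiO2-H female), 35 to 38 higher on both, and a median of 0.06 to 0.10. With 1 array fewer, groups overlap less often by construction.

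The difference of Itgav lay between −0.63 (mean of probes) and −0.85 under these scalings, and between −0.76 and −0.95 with 1 array left out. That of Col14a1 was −0.0285 on another probe, and that of Itga4 was −0.372 on a probe that no array measured above background; the cause was not tested. In limma no member had an adjusted p under 0.05 under any setting, and the lowest adjusted p over all genes ranged from 0.0747 (no scaling) to 0.364. The unadjusted count of members ranged from 3 to 32. With sex as a term, which pairs the arrays by label and leaves 1 residual degree of freedom, it was 13 as labelled and 7 with the labels of the TiO2-H arrays exchanged; the labels gave no replicate numbers that pair the samples. Signals under 23.3 to 31.7, depending on the array, were not told from background. Some higher signals were not either, such as 39.2 for Col10a1 on the Sham male array. This limits the 19 members not measured on every array.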

Other observations

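Values of the other marker lists are given as counts of genes higher and lower on both TiO2-H arrays, beside 28.7% higher and 26.6% lower of all genes. For neurons these were 3 and 1 of 8, for radial glia and astrocytes 4 and 3 of 8, for the oligodendrocyte lineage 4 and 0 of 7, and for the choroid plexus 4 and 1 of 7. For platelets and megakaryocytes they were 0 and 0 of 2 measured, for skeletal muscle 0 and 0 of 4 measured, and for epidermis 2 and 1 of 6 measured.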
